A study of Arabidopsis thaliana with 12 samples.

Results

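PHV and HAT2 are homeodomain-leucine zipper (HD-ZIP) transcription factor genes of Arabidopsis thaliana. They were chosen by name with earlier results of these data known, and the p-values below do not allow for that choice. PHV (AT1G30490) is a class III HD-ZIP gene and HAT2 (AT5G47370) a class II HD-ZIP gene. Each has 1 probe set annotated to it alone, 261800_at for PHV and 248801_at for HAT2. Together they make up 2 of the 22746 probe sets tested. Among 48 HD-ZIP genes of classes I to IV that were looked up by symbol, these were the 2 with a probe set named for a single gene, and the others are not analysed here.

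The material was root tips, 0.5 mm long, of primary roots in the Col-0 background at 4 days post germination. Every seedling, mock plates included, carried a construct labelled with the CRE1 promoter, XVE and MIR165A. XVE is a chimeric transcription factor that estradiol switches on, and the CRE1 promoter places it in the stele, the central cylinder of the root that holds xylem and phloem. The 4 groups were seedlings on mock plates with ethanol alone, called 0 h, and seedlings after 6 h, 10 h and 24 h on plates with 5 µM β-estradiol in ethanol. Each group had 3 samples described as biological replicates, and about 200 tips went into each sample. The labels do not say how long the mock seedlings stayed on their plates. Transfers were staggered so that all seedlings were of one age, within 4.5 h, at collection. Estradiol-treated seedlings without the construct are not among the groups, so induction of the microRNA, the estradiol itself and the hours on the new plate cannot be told apart. RNA was hybridised to Affymetrix ATH1 arrays, 1 array per sample, and the values are log2 signals.

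Class III HD-ZIP proteins specify the inner, adaxial side of leaves and pattern the xylem of the root, where their dose sets the type of xylem cell that forms. MiR165 and the near-identical miR166 pair with a site in the transcripts of all class III genes, inside the part that encodes the START domain, and direct their cleavage. In the root these microRNAs arise in the endodermis and move inwards, so that class III transcripts are most abundant at the centre of the stele. Class II HD-ZIP transcripts lack this site. The class II proteins are mostly transcriptional repressors, and HAT2 is known as a gene switched on quickly by auxin. The loci MIR165a (AT1G01183) and MIR165b (AT4G00885) had no named probe set, so the microRNA itself is not analysed here.

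The signal of PHV was lower on every array from induced tips than on any array from mock tips. On the mock arrays PHV read 6.99, 7.16 and 7.00. It read 6.70, 6.80 and 6.70 at 6 h, 6.43, 6.47 and 6.68 at 10 h, and 6.74, 6.74 and 6.44 at 24 h. The highest of the 9 induced arrays, a 6 h one, therefore lay under the lowest mock array. Of all probe sets, 1.19% had all 9 induced arrays below the mock arrays.

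**Figure D1:**
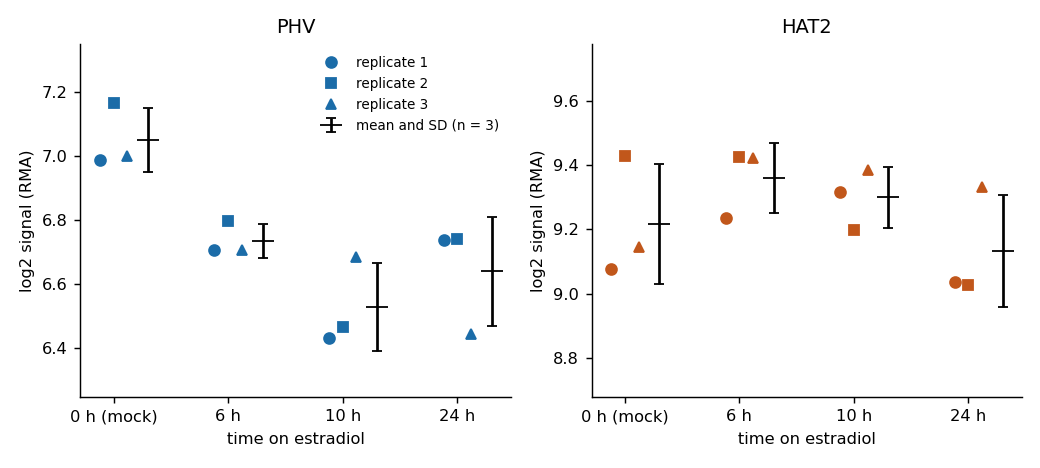
Log2 signal of PHV (left) and HAT2 (right) on each of the 12 arrays, by time on estradiol with mock plates as 0 h. Points are single arrays, horizontal dashes are group means and bars are SD (n = 3), and both vertical axes span the same number of log2 units. The induced PHV arrays all lie under the mock arrays, whose lowest value is 6.99, while the HAT2 groups overlap.

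The mock mean of PHV was 7.05 ± 0.10 and the 6 h mean 6.74 ± 0.05, followed by a 10 h mean of 6.53 ± 0.14 and a 24 h mean of 6.64 ± 0.17 (SD, n = 3 each). At 10 h against 0 h PHV fell by 0.52 on the log2 scale (SE 0.10, 95% interval -0.74 to -0.31, limma adjusted p = 0.00631). On the linear scale the signal fell by 30.4%, as summarised by arrays, which tend to compress changes. PHV was the 1 of these 2 HD-ZIP genes called at 10 h, a comparison in which 7.5% of all probe sets were called and 2.79% were called lower. Differences at least as far below 0 as that of PHV were seen in 0.668% of probe sets at 10 h.

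At the other times the difference of PHV had the same sign and did not pass the threshold of 0.05 on the adjusted p. At 6 h it was -0.31 (SE 0.10, 95% interval -0.53 to -0.10, limma adjusted p = 0.28), where 0.422% of probe sets were called. At 24 h it was -0.41 (SE 0.10, 95% interval -0.63 to -0.19, limma adjusted p = 0.0884), where 0.761% were called. The unadjusted intervals exclude 0 at both times, which was not rare. Of the 22746 probe sets tested, 2135 had an unadjusted p under 0.05 at 6 h and 2441 at 24 h. Few probe sets passed in these comparisons after adjustment over all of them. The 3 induced arrays lay wholly below the 3 mock arrays at each time, which was so for 7.33% of probe sets at 6 h, 14.4% at 10 h and 6.57% at 24 h. All times were compared with the same 3 mock arrays, so these comparisons do not repeat one another independently. An exact two-sided permutation test gave p = 0.1 for each, the smallest that 3 arrays against 3 allow.

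Taking the 9 induced arrays together makes fuller use of the data. The mean of the 3 induced group means of PHV was 0.42 below the mock mean (SE 0.083, limma adjusted p = 0.0166), so that the linear signal fell by 25.0%. This comparison called 2.38% of probe sets, and 0.598% as lower. An exact two-sided permutation test of 9 arrays against 3 gave p = 0.00909, the smallest it can give. The limma call ended without mock replicate 1 (limma adjusted p = 0.0513) and without mock replicate 2 (limma adjusted p = 0.105), with differences of -0.45 and -0.36. Over all 4 groups the F statistic of PHV was 9.84 (limma adjusted p = 0.0255, with 5.95% of probe sets called), and an exact permutation test over all 369600 assignments of the arrays to groups gave p = 0.00396. This F call ended without mock replicate 2 (F = 6.20), without mock replicate 3 (F = 7.81), and without 10 h replicate 1 (F = 7.82) or replicate 2 (F = 7.74).

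Ordered by mean level, PHV was highest at 0 h, followed by 6 h, 24 h and 10 h. Among the induced times neither PHV nor HAT2 differed past the threshold in any pair, in comparisons that called 1.24% of probe sets for 10 h against 6 h, 1.79% for 24 h against 10 h and 1.69% for 24 h against 6 h. From 6 h to 10 h the difference was -0.21 (95% interval -0.42 to 0.01, limma adjusted p = 0.447), with the 10 h arrays just under the 6 h arrays and no overlap, as in 11% of all probe sets. From 10 h to 24 h it was 0.11 (95% interval -0.10 to 0.33, limma adjusted p = 0.659), with overlap. At 24 h against 6 h it was -0.10 (limma adjusted p = 0.72), and 0.0027 without 24 h replicate 3, so the order of these times rests on that array. The spread of the 24 h group came from replicate 3, at 6.44 beside 6.74 on both other arrays.

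HAT2 showed no difference between any groups that passed the threshold. On the mock arrays it read 9.08, 9.43 and 9.14. It read 9.23, 9.42 and 9.42 at 6 h, 9.32, 9.20 and 9.39 at 10 h, and 9.04, 9.03 and 9.33 at 24 h. Each group overlapped every other, and the mock arrays alone spanned 0.35, more than any difference between 2 group means.

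The mock mean of HAT2 was 9.22 ± 0.19 and the 6 h mean 9.36 ± 0.11, with a 10 h mean of 9.30 ± 0.09 and a 24 h mean of 9.13 ± 0.17 (SD, n = 3 each). Against 0 h the difference was 0.14 at 6 h (SE 0.11, 95% interval -0.10 to 0.39, limma adjusted p = 0.771). It was 0.08 at 10 h (95% interval -0.16 to 0.33, limma adjusted p = 0.757) and -0.09 at 24 h (95% interval -0.33 to 0.16, limma adjusted p = 0.86). The sign at 24 h turned without mock replicate 2, the highest mock array, when the difference was 0.021. Exact two-sided permutation tests of 3 arrays against 3 gave p = 0.4 at 6 h, p = 0.5 at 10 h and p = 0.5 at 24 h, where 0.1 is the smallest possible.

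For the 9 induced arrays together HAT2 was 0.05 above the mock mean (95% interval -0.15 to 0.24, limma adjusted p = 0.878, exact permutation p = 0.664). Its F over the 4 groups was 1.56 (limma adjusted p = 0.549, exact permutation p = 0.318). By mean level HAT2 ran from 6 h, the highest, through 10 h and 0 h to 24 h, and no neighbours in that order differed beyond their spread. Its widest difference was between 24 h and 6 h, at -0.23 (95% interval -0.47 to 0.01, limma adjusted p = 0.358). With arrays weighted by how well they matched their group this became -0.34 (limma adjusted p = 0.0173), and 24 h replicate 3, the array with the highest HAT2 of its group, then had the lowest weight, 0.344.

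**Figure D2:**
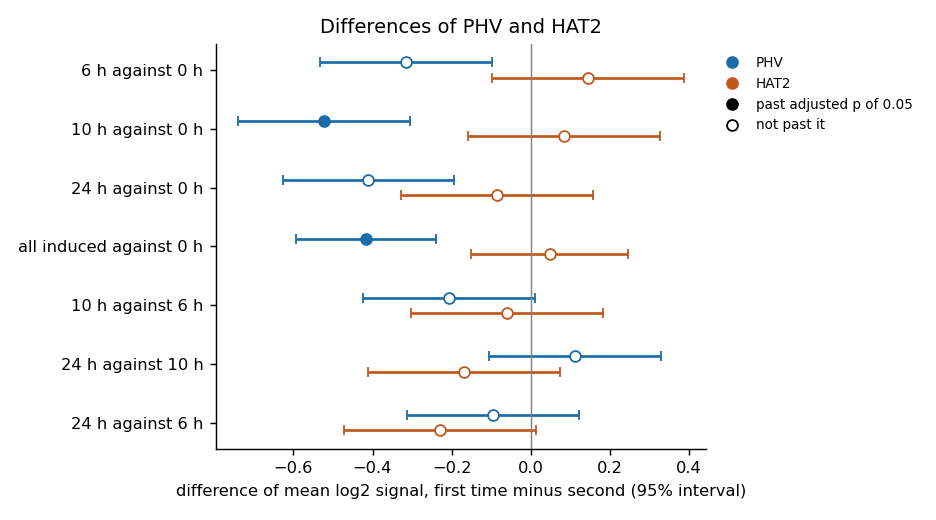
Difference of mean log2 signal, first time minus second, for PHV (blue) and HAT2 (orange) in 7 comparisons, with 95% intervals from the model over all 12 arrays. Filled points passed the adjusted threshold of 0.05, which holds for PHV at 10 h (-0.52) and over all induced arrays (-0.42), and for no HAT2 comparison.

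The measured changes of PHV and HAT2 differed, a comparison made only after the data were seen. At 10 h the 95% interval of HAT2 against 0 h ended at -0.16 on its lower side. That of PHV ended at -0.31 on its upper side, around a fall of 0.52. To set them side by side on the same arrays, the log2 signal of HAT2 was subtracted from that of PHV on each array, a step added after the data were seen. It also cancels any factor that an array applies to all its probe sets. Relative to HAT2, PHV was 0.46 lower over the 9 induced arrays than on the mock arrays, with all 9 below all 3 (exact two-sided permutation p = 0.00909, the smallest possible). PHV alone already set the same arrays apart with the same p, so this p is no separate support for a difference between the genes. By time the change in PHV exceeded that in HAT2 by -0.46 at 6 h, -0.61 at 10 h and -0.33 at 24 h (exact permutation p = 0.1 each, the smallest possible). The 24 h value rests largely on replicate 3 and was -0.13 without it. A ratio of this kind measures unequal change and does not show that HAT2 stayed constant.

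Across the 12 arrays no relation between the signals of PHV and HAT2 was detected, with Pearson r = -0.07 (permutation p = 0.829) and Spearman rho = -0.04 (permutation p = 0.9). Without the 2 arrays farthest from the median of PHV, mock replicate 2 and 10 h replicate 1, r was -0.34 (permutation p = 0.335). Since the mock arrays stand apart in PHV, the relation was also taken within the 9 induced arrays, where r was -0.11 (exact permutation p = 0.765) and rho was -0.03 (exact permutation p = 0.937). After subtraction of each group's mean, r over the 12 arrays was 0.01. On 24 h replicate 3 PHV was the lowest and HAT2 the highest of that group, while on mock replicate 2 both genes were the highest of the group.

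**Figure D3:**
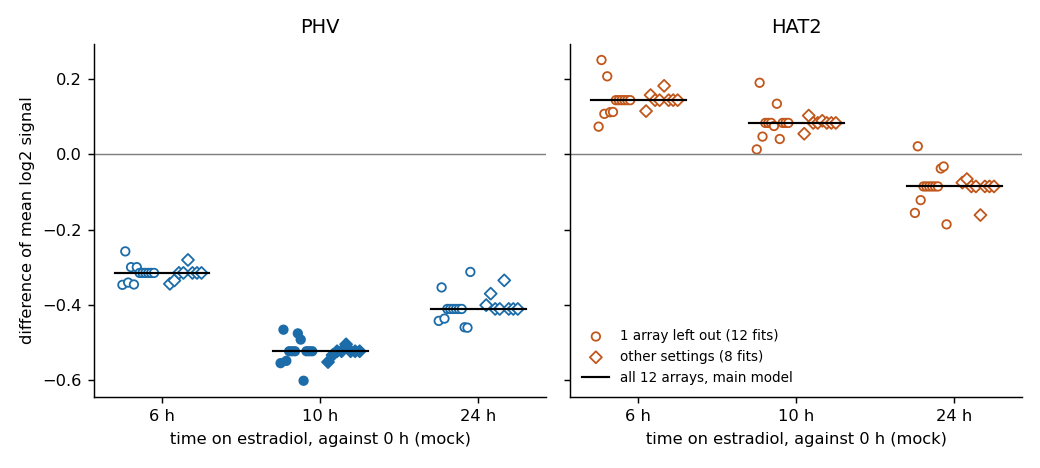
Difference of mean log2 signal against 0 h for PHV (left) and HAT2 (right) when 1 array is left out (circles) or another setting is changed (diamonds), with the value of the main model as a line. Filled symbols passed the adjusted threshold of 0.05. PHV at 10 h was past it in every fit shown, between -0.60 and -0.47, and HAT2 in none.

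The call on PHV at 10 h held when any 1 of the 12 arrays was left out, with differences between -0.60 and -0.47 and limma adjusted p between 0.00211 and 0.0349. It also held under the 8 other settings tried, where the limma adjusted p ran from 0.00246 to 0.032. At 6 h and 24 h PHV passed under none of these 20 alternatives, the smallest limma adjusted p being 0.133 at 6 h and 0.0615 at 24 h.

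PHV is transcribed in the stele, and in whole tips fewer cells of a type and less RNA per cell cannot be told apart. Of the 10 genes on the stele list 4 were measured, PHV among them. The others were LHW (a bHLH factor that drives vascular cell divisions), MOL1 (a receptor-like kinase of vascular tissue) and OPS (a phloem protein). These 3 also stand in the vascular list. None of them passed at 6 h, 10 h or 24 h, comparisons that called 0.422%, 7.5% and 0.761% of all probe sets. At 10 h they differed from 0 h by -0.15, 0.09 and 0.09, and at 24 h by -0.04, 0.05 and 0.33. Their mean level per array lay between 6.99 and 7.09 at 6 h, 6.96 and 7.00 at 10 h and 6.93 and 7.17 at 24 h, against 6.92 to 7.04 at 0 h, and none was at 0. In a step added after the data were seen, PHV minus this mean was 0.37 lower at 6 h, 0.53 lower at 10 h and 0.52 lower at 24 h than at 0 h. All 9 induced arrays lay below the mock arrays on this measure too (exact two-sided permutation p = 0.00909 for all induced against 0 h, the smallest possible). PHV alone already set the same arrays apart and the stele mean moved little, so this p was largely fixed beforehand. It does not separate fewer cells from less RNA per cell. At 24 h the arrays lay between -0.48 and -0.41 on this measure, and replicate 3 was the lowest of its group both in PHV and in the stele mean.

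Some markers of tissues outside the stele moved at 10 h, when PHV was called, and TRY passed at 6 h and 24 h too. Of the 12 genes on the epidermis and root hair list 3 were measured. All 3 passed at 10 h, a comparison that called 7.5% of all probe sets. The root hair expansins EXPA7 (2.02, limma adjusted p = 0.0004) and EXPA18 (1.26, limma adjusted p = 0.00186) rose. TRY, a MYB-related regulator of hair and trichome patterning, fell by 0.71 (limma adjusted p = 0.000694). The list's mean per array was 5.94 to 6.08 at 10 h, against 5.07 to 5.23 at 0 h, and no gene of it was at 0. GSO1, the 1 measured gene of the endodermis and cortex list and a receptor kinase of the Casparian strip, rose by 0.75 at 10 h (limma adjusted p = 0.0147), a call that ended without mock replicate 1, 10 h replicate 1 or 10 h replicate 3, and without variance moderation. The part of these shifts in the lower PHV signal was not tested. At 6 h the epidermis list's mean lay between 4.94 and 5.10, and TRY fell by 0.57 (limma adjusted p = 0.0191), a call that ended without either of 2 mock arrays or either of 2 arrays of 6 h, without variance moderation and with the compared groups alone. At 24 h the epidermis list's mean lay between 4.85 and 5.75. TRY was then 0.48 lower than at 0 h (limma adjusted p = 0.0359), a call lost under 12 of 19 alternatives. EXPA7 (0.59) and EXPA18 (0.23) did not pass at 24 h. Of the meristem and stem cell niche list neither of 2 measured genes passed. BBM, a meristem regulator, read -0.18 at 10 h (limma adjusted p = 0.393), and AGL42, a stem cell niche gene, read 0.49 at 6 h (limma adjusted p = 0.415) and 0.14 at 10 h. The leaf and shoot list had a mean per array between 4.43 and 4.75 over all arrays, with none of its 3 measured genes past the threshold and none at 0.

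Genes known to act around HD-ZIP III were examined by list, although 5 of the 13 lists, among them the LITTLE ZIPPER genes that class III factors switch on, had no named probe set. Of the small-RNA pathway, 0 of 4 measured genes passed at 6 h, 10 h or 24 h. Its median difference was -0.019 at 6 h, -0.15 at 10 h and -0.054 at 24 h, and the medians over all probe sets were 0.0016, -0.012 and -0.0097. AGO7, an Argonaute that carries another microRNA, read -0.26 at 6 h (limma adjusted p = 0.441), and TGH, a factor in microRNA processing, read -0.17 at 24 h (limma adjusted p = 0.649). Of the leaf polarity list 0 of 3 passed, with INO at 0.38 (limma adjusted p = 0.282) and YAB5 at 0.09 (limma adjusted p = 0.76), both at 24 h. Group means of these 3 polarity genes lay between 3.25 and 4.12, under the lowest array median of 5.97. Of the xylem and vascular list 0 of 6 passed, with OPS at 0.33 (limma adjusted p = 0.103) and CLE41, a peptide of the vascular cambium, at -0.22 (limma adjusted p = 0.453), both at 24 h. Over all probe sets 0.422% were called at 6 h, 7.5% at 10 h and 0.761% at 24 h. With such shares, 0 calls in lists this short is not unusual.

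The auxin genes are the setting in which HAT2 is best known. Aux/IAA proteins repress auxin responses, and of 7 measured genes 1 fell at 6 h, 1 rose and 2 fell at 10 h, and 1 rose and 2 fell at 24 h. Over all probe sets 0.207% fell at 6 h, 4.7% rose and 2.79% fell at 10 h, and 0.528% rose and 0.233% fell at 24 h. The list's medians were -0.07 at 6 h, -0.13 at 10 h and -0.34 at 24 h, beside medians of 0.0016, -0.012 and -0.0097 over all probe sets. IAA30 and IAA20, atypical members of the family linked to xylem formation, were among those that fell: IAA30 by 0.72 at 6 h (limma adjusted p = 0.0262), 0.84 at 10 h (limma adjusted p = 0.00161) and 0.84 at 24 h (limma adjusted p = 0.0082), and IAA20 by 0.43 at 10 h (limma adjusted p = 0.011) and 0.59 at 24 h (limma adjusted p = 0.00842). Both are low in signal: IAA30 averaged 4.55 at 0 h and 3.71 at 24 h, and IAA20 4.84 and 4.25, under the lowest array median of 5.97. IAA18 rose by 0.44 at 10 h (limma adjusted p = 0.0154), and IAA29 rose by 0.99 at 24 h (limma adjusted p = 0.00116). These genes also lay under that median. IAA18 averaged 5.35 at 0 h and 5.79 at 10 h, and IAA29 averaged 4.46 at 0 h and 5.44 at 24 h.

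The 24 h values of HAT2 can be read beside those of GH3.3, which encodes an enzyme that conjugates auxin to amino acids and is itself an early auxin response gene. GH3.3 averaged 5.21 at 24 h, against 3.46 at 0 h, and rose by 1.75 (SE 0.14, limma adjusted p = 1.73e-05). Both means lay under the lowest array median of 5.97. It was the 1 of 8 measured auxin response genes that passed at any time, the list's median at 24 h being 0.0051. Over all probe sets 0.422% were called at 6 h, 7.5% at 10 h and 0.761% at 24 h. HAT2 at 24 h read 0.09 below its mock mean. Of the auxin synthesis, transport and signalling list 0 of 3 measured genes passed, with YUC6 at 0.21 at 24 h (limma adjusted p = 0.554) and YUC4 at -0.17 at 10 h (limma adjusted p = 0.56), both enzymes of auxin synthesis. Without variance moderation the calls on IAA30 at 6 h and 24 h, IAA20 and IAA29 at 24 h and IAA18 at 10 h ended (limma adjusted p = 0.198, 0.129, 0.0638, 0.0588 and 0.0503). With the compared groups alone those on IAA30 at 6 h and 24 h ended (limma adjusted p = 0.0799 and 0.0595). The call on IAA30 at 6 h also ended without mock replicate 1 or 3, 6 h replicate 2 or 3, or 10 h replicate 1. That on IAA18 also ended without mock replicate 1 or 2, or 10 h replicate 1 or 3, and that on IAA20 at 10 h without 10 h replicate 3.

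**Figure D4:**
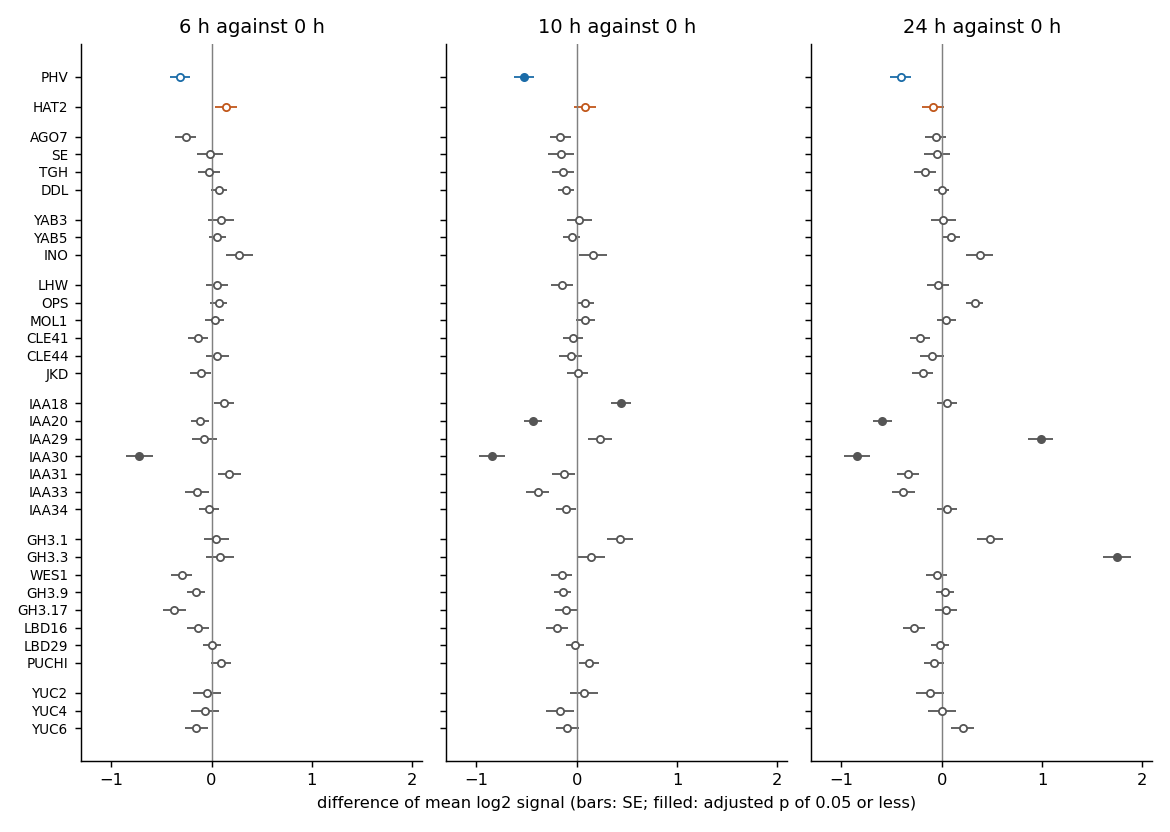
Difference of mean log2 signal against 0 h at 6 h, 10 h and 24 h for PHV, HAT2 and all measured genes of the small-RNA, leaf polarity, vascular and auxin lists, grouped by list from top to bottom. Bars are SE and filled points passed the adjusted threshold of 0.05. PHV (blue) is filled at 10 h, HAT2 (orange) at no time, and IAA30 at all 3.

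The genes with the profile most like that of PHV over the 12 arrays were AT5G48650 (Pearson r = 0.95), AT3G61770 (r = 0.95), AT1G23340 (r = 0.94), TRM25 (r = 0.91), a gene of the TON1 recruiting motif family, and AT1G09520 (r = 0.90). They were picked as the 5 highest of 13512 named probe sets other than PHV, of which 8 had r of at least 0.9. These correlations are a description over arrays that share their groups. After subtraction of group means r with PHV was 0.81, 0.79, 0.84, 0.75 and 0.76 for the same genes in that order, values that the choice of genes by r on the same arrays partly fixes. AT3G61770 had a mock mean of 8.08 and a 6 h mean of 7.84, then 7.67 at 10 h and 7.81 at 24 h. Its lowest mean was at 10 h as in PHV, a likeness that the choice by r also partly fixes.

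For HAT2 the most alike genes were AT1G19310 (r = 0.91), AT1G22570 (r = 0.87), AT5G46040 (r = 0.87), AT5G05310 (r = 0.84) and AT2G19180 (r = 0.84), and 1 named probe set had r of at least 0.9. With group means subtracted r was 0.91, 0.89, 0.88, 0.83 and 0.78 in that order. These values too are partly fixed by the choice of genes on the same arrays. AT1G19310 had a mock mean of 8.38 and a 6 h mean of 8.53, then 8.59 at 10 h and 8.25 at 24 h. With Spearman's rho in place of Pearson's r, 2 of the 5 genes stayed among the first 5 for PHV and 2 for HAT2.

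**Figure D5:**
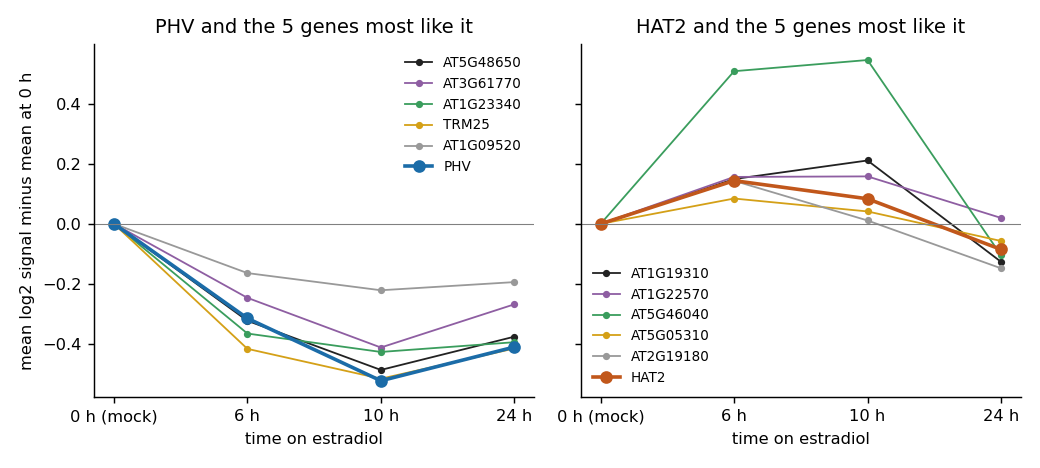
Mean log2 signal at each time minus the mean at 0 h for PHV (blue, left), HAT2 (orange, right) and the 5 named genes most correlated with each over the 12 arrays. Lines join group means of 3 arrays. The genes beside PHV all lie under 0 at 6 h, 10 h and 24 h, and those beside HAT2 lie above 0 at 6 h. The choice of genes by correlation on the same arrays partly fixes these likenesses.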

How the data were processed

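Root tips of induced and mock seedlings were profiled on 12 one-colour ATH1 arrays. The deposited values are log2 signals, made with Affymetrix Expression Console and RMA per the submitters' processing notes, which also name limma. Their versions are not given in the sources used here. The method corrects background, equalises the arrays' distributions and summarises probes, which compresses changes of dim genes. Array medians lay between 5.97 and 6.13, and arrays of a group correlated at 0.993 to 0.998. The number of arrays limits the precision.

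After 64 controls were left out, 22746 probe sets were fitted with limma 3.58.1 in R 4.3.3 as 4 group means with empirical Bayes moderation, and p-values were adjusted by Benjamini-Hochberg over all of them. Calls needed an adjusted p of 0.05 or less. Permutation tests of induced against mock arrays used SciPy 1.17.1 with full enumeration. Those over the 4 groups and of relations were coded directly, with 100000 resamples for relations over 10 or more arrays and full enumeration otherwise. Scripts were tested on simulated data. Names came from the platform annotation, which gave 13513 probe sets 1 gene name, 503 several and 8730 none. Of the named, 13436 were found in a RefSeq table of assembly TAIR10.1. The arrays name no build, so its coordinates served only to order genes when the neighbours of PHV and HAT2 were found. Sequences of the genes and of the microRNA were not used here.

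Members and lists were chosen with earlier results of these data known. Named were both members, measured HD-ZIP genes, up to 4 called genes of each list or otherwise up to 2 with the smallest p, and the 5 genes most correlated with each member. The alternatives were median centring and quantile normalization of the arrays, dropping dim probe sets, trended and robust or no variance moderation, weighted arrays, a replicate block, the compared groups alone, a 1.5-fold minimum for counts, and leaving out each array.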

Additional observations from a re-analysis of the deposited data

Results flagged for a closer look

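Neither PHV nor HAT2 was singled out by these checks. For some genes of the lists the change from 0 h differed between times by limma's adjusted p on the difference itself, given here on the log2 scale. IAA20 was lower at 24 h than at 6 h (-0.48), a call that ended without 6 h replicate 1 or 2 or 24 h replicate 1 or 2. IAA29 was higher at 24 h than at 10 h (0.76) and 6 h (1.06), and the first call ended without 10 h replicate 3. GH3.3 was higher at 24 h than at 10 h (1.60) and 6 h (1.66). AGL42, a gene of the stem cell niche, was lower at 24 h than at 6 h (-0.88), a call that ended without 6 h replicate 2 or 3, 10 h replicate 1, or 24 h replicate 2 or 3. EXPA7 was higher at 10 h than at 6 h (1.75) and lower at 24 h than at 10 h (-1.43), and EXPA18 likewise (1.31 and -1.03). The 24 h against 10 h calls ended without 10 h replicate 2 or 3 or 24 h replicate 2 for both genes, and for EXPA18 also without 10 h replicate 1 or 24 h replicate 1. Without variance moderation all of these calls ended except those on GH3.3 and that on IAA29 at 24 h against 6 h. With the compared groups alone, those on IAA20, AGL42 and the 24 h against 10 h calls on EXPA7 and EXPA18 ended.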

How the results depend on the processing

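PHV kept its direction against 0 h under all alternatives run at 6 h, 10 h and 24 h. With 1 array left out its difference was -0.35 to -0.26 at 6 h, -0.60 to -0.47 at 10 h, -0.46 to -0.31 at 24 h and -0.45 to -0.36 for all induced arrays, its F was 6.20 to 12.1, and at 24 h against 6 h it was -0.15 to 0.0027. HAT2 was -0.19 to 0.021 at 24 h and -0.023 to 0.15 for all induced arrays, turning sign without mock replicate 2 and mock replicate 1. The correlation of PHV with HAT2 ran from -0.37 to 0.060, with positive values of 0.060 without mock replicate 1 and 0.010 without mock replicate 3. Array weights brought HAT2 past the threshold at 24 h against 6 h (-0.34, limma adjusted p = 0.0173) and over the 4 groups (F = 5.88, limma adjusted p = 0.0486); the cause was not tested. Over all probe sets the counts of 96, 1705 and 173 calls at 6 h, 10 h and 24 h ran from 34 to 184, 875 to 2151 and 65 to 225 with 1 array left out. Array weights gave 239 at 6 h and 520 at 24 h, trended and robust moderation 169 at 6 h, the compared groups alone 53 at 24 h, and the fold minimum 699 at 10 h. Replicate numbers mark no stated pairing, and 8 of 18 same-numbered pairs had deviations correlated over 0.1, while 9 of 12 arrays correlated best with an array of their own number. With the replicate number as a block the counts were 160, 1870 and 355, and PHV at 10 h had a limma adjusted p = 0.00762. TRY at 24 h, whose difference was -0.48, lost its call under 12 of 19 alternatives.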

Other observations

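In the RefSeq gene order HAT2 lies between AT5G47360 and AT5G47380, and both had a named probe set. Neither passed the threshold against 0 h, with differences of -0.13, -0.21 and 0.03 for AT5G47360 at 6 h, 10 h and 24 h, and 0.01, 0.17 and 0.13 for AT5G47380. The neighbours of PHV, AT1G30480 and AT1G30500, had no probe set named for 1 gene and are not analysed here.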
